A study of Homo sapiens with 18 samples.

Results

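The comparison described here is the effect of dihydrotestosterone (DHT) on transcript levels in LNCaP cells also given a high dose of the antiandrogen enzalutamide. It sets 3 arrays of cells given 100 nM DHT together with 10 µM enzalutamide against 3 arrays of cells given 10 µM enzalutamide with vehicle, 6 of the 18 arrays of the study, chosen by their titles and read over all probe sets. LNCaP is an established androgen-responsive line started from a prostate carcinoma that had spread to a lymph node. Treatment lasted 16 h in serum stripped of hormones, and DMSO was the solvent of the vehicle. The other 12 arrays, 3 a group, held vehicle, 100 nM DHT, 1 µM enzalutamide, and 100 nM DHT with 1 µM enzalutamide. LNCaP is a single line, and the labels do not say whether replicates were separate cultures, so p-values rest on a spread between arrays that may be technical.

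The androgen receptor is a transcription factor of the nuclear receptor family. When DHT, a natural androgen, occupies its ligand pocket, the receptor moves to the nucleus, binds DNA at androgen response elements and raises or lowers the transcription of nearby genes. Enzalutamide competes for the same pocket and hinders nuclear entry and DNA binding, and the comparison asks which DHT effects are measured in the presence of the antagonist. In prostate cells the androgen programme includes secreted proteases such as prostate-specific antigen, lipid synthesis and a set of genes that androgen lowers.

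The stretches of 250 bases before the start of 3 genes on which the results turn are shown here, on their own strand and in the 5′ to 3′ direction, from RefSeq (GRCh38.p14). KLK3 (chr19:50854665-50854914, plus strand) and KLK2 (chr19:50873189-50873438, plus strand) are neighbouring kallikrein protease genes that were among the strongest risers. UGT2B15 (chr4:68670653-68670902, minus strand) fell, and was taken after its window was seen to hold the shorter of the patterns below. Capitals mark matches to GNACANNNNGTNC, an androgen response element pattern with N for any base, in KLK3 and KLK2, and to AGAACA, a single arm of such an element, in UGT2B15.
KLK3: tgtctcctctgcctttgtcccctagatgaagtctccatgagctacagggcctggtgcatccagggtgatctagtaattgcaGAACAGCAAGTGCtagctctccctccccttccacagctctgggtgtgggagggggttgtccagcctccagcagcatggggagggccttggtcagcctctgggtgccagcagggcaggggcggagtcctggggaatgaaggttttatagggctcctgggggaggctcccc
KLK2: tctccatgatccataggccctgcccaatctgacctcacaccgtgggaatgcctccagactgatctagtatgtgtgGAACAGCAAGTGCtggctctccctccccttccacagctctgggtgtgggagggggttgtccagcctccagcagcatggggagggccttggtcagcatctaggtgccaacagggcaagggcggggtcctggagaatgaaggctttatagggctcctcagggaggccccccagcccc
UGT2B15: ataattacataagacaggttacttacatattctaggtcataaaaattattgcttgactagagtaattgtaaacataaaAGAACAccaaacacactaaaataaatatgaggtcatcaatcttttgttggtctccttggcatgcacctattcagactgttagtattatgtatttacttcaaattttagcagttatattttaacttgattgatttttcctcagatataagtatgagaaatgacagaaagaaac
The KLK3 match begins 169 bases before the gene start, the KLK2 match 175 bases and the UGT2B15 match 172 bases before it. Both patterns were searched on both strands, and a match to the second can overlap a match to the first. A promoter entry was found for 9683 of the 12756 genes tested, and 1.51% of these windows held the longer pattern. It was present in 5 of 117 windows of genes that rose with DHT beside 10 µM (4.27%), those of KLK2, KLK3, CENPN, GPD1L and RNF41, and in 1 of 147 windows of genes that fell (0.68%), that of MYNN. Among genes that DHT raised without the drug it was in 12 of 782 windows (1.53%), near the share of all genes. GPD1L, RNF41 and MYNN were named after their values were seen. AGAACA was in 7.5% of all windows, 8.55% of those of genes that rose and 6.8% of those of genes that fell. These shares are a description of letters in a short window and were not tested.

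Signals are deposited log2 values, so a difference of 1 is a doubling. The DHT effect is the difference between the means of 3 and 3 arrays, followed by its standard error (SE). Called genes are those with a limma adjusted p under 0.05, by Benjamini-Hochberg over all 12756 genes bright enough to be tested. The array medians were 6.91, 7.14 and 7.18 with DHT and 7.18, 7.0 and 7.07 without it. Over all probe sets, r lay at 0.947 to 0.962 for the 6 pairs of arrays within these groups and at 0.945 to 0.957 for the 9 pairs across them. The ratio of the ACTB probe sets at the 3′ and 5′ ends, a common sign of RNA integrity, was high on 2 arrays outside these groups, replicate 2 of DHT (4.50) and replicate 2 of 1 µM enzalutamide (6.04).

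Luminal prostate markers were bright, with 12 of 15 past the brightness limit. Their summed signal was 92898 to 99163 with 10 µM enzalutamide and 77085 to 89775 when DHT was added, ranges that do not overlap. Among their 12 tested genes ACP3 and FOLH1, both among the brightest, fell, and the FOLH1 call was lost under 9 of 14 alternatives. The part of these marker shifts in other results was not tested. Fewer markers of other cell types passed the limit, though some of them, such as FN1, SYT4 and TUBB3, were bright. The counts were 4 of 10 basal, 5 of 13 fibroblast, 3 of 11 leukocyte, 3 of 8 endothelial and 4 of 14 neuroendocrine markers. Their summed signals, with the drug and with DHT added, were 1781 to 2106 and 2044 to 2523 for basal, 5909 to 6588 and 5503 to 6114 for fibroblast, 1201 to 1781 and 1086 to 1545 for leukocyte, and 828 to 908 and 912 to 993 for endothelial markers. The endothelial ranges do not overlap, although none of PECAM1, VWF and ENG passed the test. The samples are of a single cell line read in bulk, so these signals are no count of cells of other types, and their source was not tested.

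DHT still changed transcript levels beside 10 µM enzalutamide. By limma, 359 genes were called, 2.81% of those tested, with 173 higher (1.36%) and 186 lower (1.46%). The changes were mostly small: the median size among called genes was 0.59, and 27 of the genes that rose and 22 of those that fell changed at least 2-fold. Strong risers included the kallikreins KLK2 and KLK3, TMPRSS2, PMEPA1 and SLC45A3, and strong fallers included OPRK1, IL1RN, MYLK and the androgen-inactivating enzymes UGT2B15 and UGT2B17. The groups of arrays did not overlap for 357 of the 359 called genes, and for 24.8% of all genes tested. The strongest risers and fallers described below were named only from called genes without overlap. Lack of overlap in them is fixed by that choice and is no further support. For this contrast the authors' deposited table holds 938 marked probe sets, 490 higher and 448 lower with DHT. It marks the probe sets of 256 of the 359 called genes (71.3%), all 256 in the same direction. The count depended on single arrays: it was 181 and 192 without replicates 1 and 2 of the enzalutamide group, and 182 and 165 without replicates 2 and 3 of the group with DHT. It was 123 once array medians were set equal and 859 when the 2 arrays with a high ACTB ratio were dropped, which belong to neither group and enter through the shared estimate of spread.

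KLK2, a secreted serine protease of the prostate, changed most. Its log2 signal was 7.41, 6.82 and 7.41 with 10 µM enzalutamide and 11.78, 11.47 and 11.60 when DHT was added. Every array with DHT lay far above every array without it, a 21.2-fold rise (4.40 ± 0.39, limma adjusted p = 1.38e-06). KLK3, which encodes prostate-specific antigen, was already bright with the drug alone at 11.46, 11.13 and 11.53, and reached 14.15, 13.88 and 13.88 with DHT. The groups were well apart, and the 6.05-fold rise (2.60 ± 0.23) had an adjusted p of 1.38e-06 in limma. A second bright probe set of KLK2 gave 3.29, and those of KLK3 gave 3.14 and 0.68. KLK2 and KLK3 are close paralogs, and whether transcripts of one bind probes of the other was not tested.

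TMPRSS2, a membrane serine protease whose androgen-driven promoter is often fused to ERG in prostate cancer, lay at 7.62, 8.47 and 8.76 without DHT and at 11.13, 10.50 and 10.70 with it. The lowest array with DHT was above the highest without it, and the rise was 2.49 ± 0.25 (limma adjusted p = 4.59e-06). Its other bright probe sets gave 0.82 and 2.96, so they differed in size but not in sign. PMEPA1, a membrane protein that restrains TGF-β signalling, lay at 9.02, 9.54 and 9.13 without DHT and at 11.64, 11.31 and 11.47 with it. It rose by 2.24 ± 0.15 (limma adjusted p = 3.35e-08), with no overlap between groups.

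SLC45A3, the prostate membrane transporter known as prostein, rose by 1.64 ± 0.11, and ABCC4, an efflux pump for organic anions, rose by 1.23 ± 0.12. ELOVL7, an elongase of long fatty acids, rose by 1.35 ± 0.12. LPAR3, a receptor for lysophosphatidic acid, lay at 10.02, 10.22 and 10.30 with the drug and at 11.41, 11.38 and 11.51 with DHT added. The arrays of each group lay close together, without overlap between groups, and the rise was 1.25 ± 0.09. These 4 genes had limma adjusted p-values of 3.35e-08, 2.91e-06, 1.38e-06 and 1.43e-07.

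Among the other strong risers, GREB1, a hormone-responsive gene, rose by 1.14 ± 0.17, and CENPN, a centromere protein, by 1.14 ± 0.15. GLMP, a lysosomal membrane protein, rose by 1.73 ± 0.17, and TMEM79 and MGC13170 rose by 1.44 ± 0.26 and 1.28 ± 0.17. Other bright GLMP probe sets gave smaller rises of 0.64 and 0.31. PPFIBP2, a liprin scaffold protein, rose by 1.37 ± 0.30 but lost its call under 2 of 14 alternatives, and its other bright probe sets gave 0.12 and 0.04. For 3 genes the group without DHT lay below the brightness limit of 6.98, so the size of the change is uncertain. They were F5, coagulation factor V (2.56 ± 0.37), NNMT, which methylates nicotinamide (2.45 ± 0.41), and TLL2, a tolloid-like metalloprotease (1.69 ± 0.30). All genes of this paragraph except PPFIBP2 were called in limma under each alternative in which they were tested.

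Genes that DHT lowered were led by OPRK1, the kappa opioid receptor. Its signal was 9.46, 9.32 and 9.46 with enzalutamide and 7.45, 7.22 and 7.58 with DHT. The groups were far apart, but the fall by 2.0 ± 0.45 had a limma adjusted p of 0.02 and was not called under 5 of 14 alternatives. IL1RN, the antagonist of the interleukin-1 receptor, was the firmest faller, from 10.13, 10.31 and 10.28 to 8.63, 8.55 and 8.61. The 3 arrays with DHT spanned less than 0.1 on the log2 scale, and the fall by 1.64 ± 0.12 had a limma adjusted p of 1.79e-07. Its other bright probe sets gave -1.75 and -1.22. MYLK, a myosin light chain kinase, went from 9.96, 10.15 and 10.13 to 8.49, 8.65 and 8.76. The groups did not overlap, and it fell by 1.45 ± 0.12 (limma adjusted p = 7.07e-07), although another bright probe set gave -0.27.

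UGT2B15 and UGT2B17 attach glucuronic acid to DHT and its metabolites and so inactivate androgens. UGT2B15 was very bright with enzalutamide, at 14.33, 14.29 and 14.11, and lay at 13.18, 12.98 and 12.98 with DHT. It fell by 1.20 ± 0.09 (limma adjusted p = 2.24e-07), and 2 further probe sets gave -1.61 and -1.83. UGT2B17 fell by 1.22 ± 0.14, from 13.88, 14.06 and 13.71 to 12.80, 12.61 and 12.59 (limma adjusted p = 2.76e-05). In both genes every array with DHT lay below every array without it, a condition for naming them. The enzymes are near-identical paralogs, and probes that read both were not looked for. ACP3, prostatic acid phosphatase, fell by 1.12 ± 0.11 from 13.85, 14.18 and 13.91 to 13.07, 12.86 and 12.68 (limma adjusted p = 2.91e-06).

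Further fallers had varied roles. The changes were -1.39 ± 0.18 for AMIGO2, an adhesion protein, -1.33 ± 0.18 for SI, sucrase-isomaltase, -1.25 ± 0.22 for GCG, which encodes proglucagon, and -1.18 ± 0.18 for MAN1A1, a Golgi mannosidase. They were -1.18 ± 0.19 for COL5A2, a fibrillar collagen, -1.17 ± 0.13 for EFHC2 and -1.11 ± 0.13 for SLC44A1, a choline transporter. These 7 genes were called in limma under each alternative in which they were tested. Other large falls were less firm: MID1 (-1.74 ± 0.41), FLJ36779 (-1.61 ± 0.39), DEFB124 (-1.52 ± 0.39) and ID3 (-1.20 ± 0.31) each lost the call under 6 of 14 alternatives. CD200 (-1.58 ± 0.33) lost it under 3, H4C2 (-1.25 ± 0.32) under 8 and C16orf89 (-1.24 ± 0.33) under 9. With DHT the means of FLJ36779, CD200 and H4C2 were below the brightness limit, so the size of these falls is uncertain. Of the 62 named genes called beside 10 µM, 37 were called under each of the 14 alternatives that tested them, since a stricter brightness filter drops the dimmer genes. Over all called genes, 199 had another bright probe set, and in 152 of these all such probe sets had the same sign as the one tested.

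**Figure D1:**
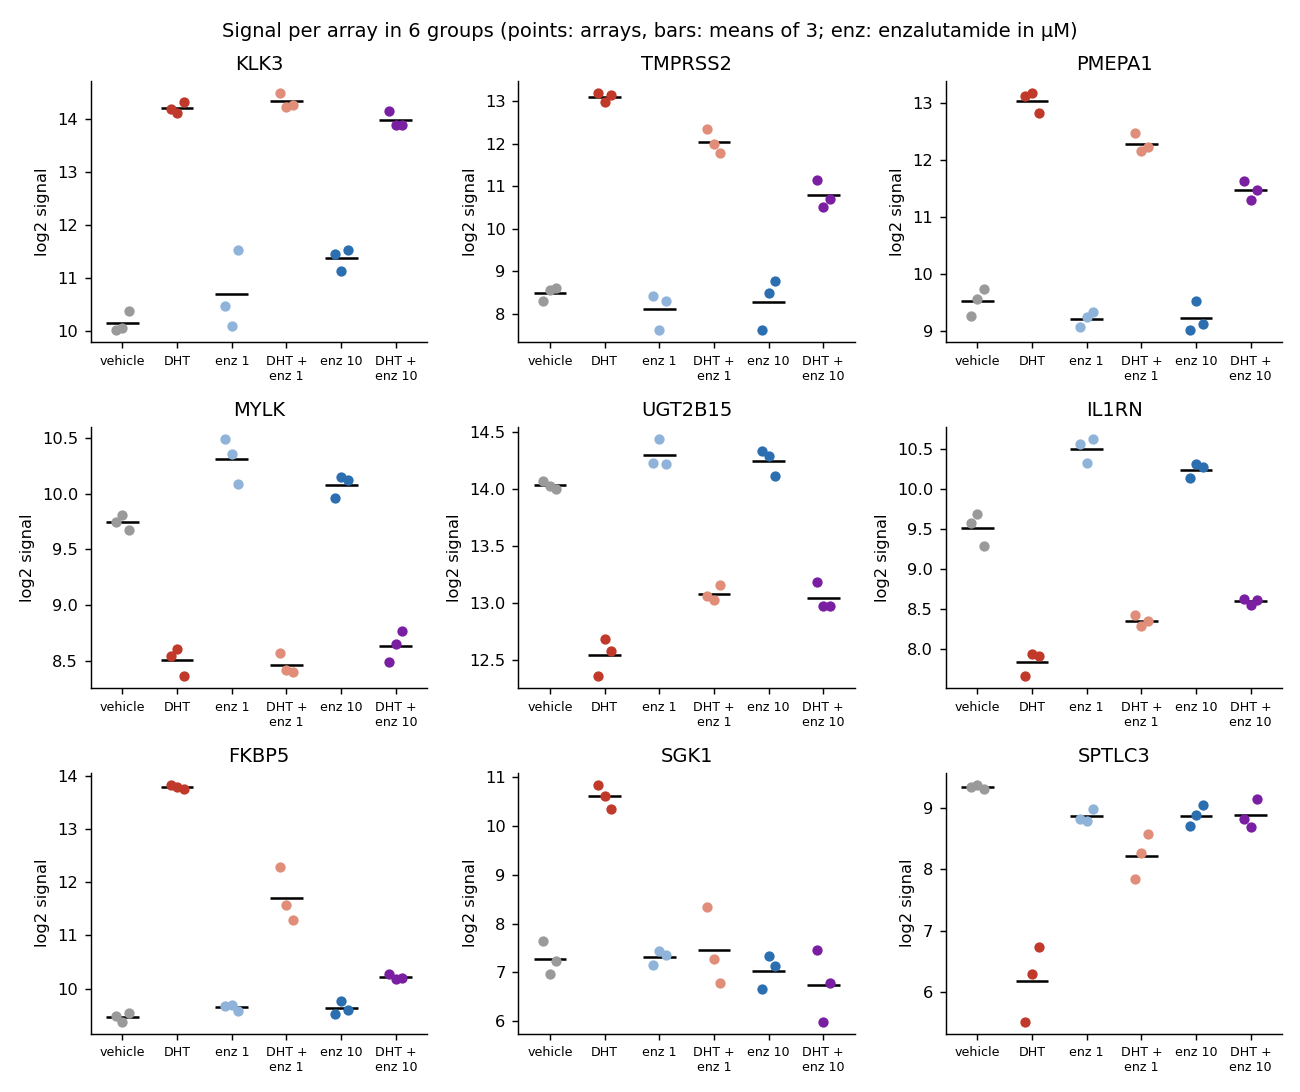
Log2 signal of 9 genes on each array (points) with the group mean of 3 arrays (bars), for vehicle, 100 nM DHT, enzalutamide at 1 or 10 µM (enz), and DHT with each dose. In the right pair of columns of each panel, DHT separates the groups for KLK3, TMPRSS2, PMEPA1, MYLK, UGT2B15 and IL1RN, lifts FKBP5 by 0.58, and leaves overlapping arrays for SGK1 and SPTLC3.

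The DHT effect beside 10 µM was then set against the DHT effect without enzalutamide, the difference between 3 arrays of DHT and 3 of vehicle. The effects share no array, so their difference could be tested directly. Without the drug 2056 genes were called (16.1%), 995 higher (7.8%) and 1061 lower (8.32%), and 358 of the called genes changed at least 2-fold. Of the 359 genes called beside 10 µM, 245 (68.2%) were also called without the drug in the same direction, which is 11.9% of the calls without the drug. The difference between the effects was called by limma for 638 genes (5%). Of these, 568 were called without the drug, and for 564 of them the effect beside 10 µM was smaller in size. The other 4, ADAMTS1, GLUL, NAMPT and TNKS, had opposite signs in the backgrounds and were named after their values were seen. The call without the drug and the call of the difference both use the effect without the drug. The count of 564 is therefore partly fixed by this selection. The 638 genes fell to 400 without vehicle replicate 1, to 393 and 421 without replicates 2 and 3 of the group with DHT and 10 µM, and to 244 after array medians were set equal. The share of higher differences moved with the centring, from 50% to 29.5%.

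Over the 2056 genes called without the drug, the slope of the effect beside 10 µM on the effect without it was 0.301, with a jackknife SE of 0.0384 over 12 arrays and a range of 0.265 to 0.310 when each array was left out. The slope was 0.308 for genes that rose without the drug and 0.293 for those that fell. It was 0.337 for genes with at least 2-fold changes without the drug. It was 0.467 for the 248 genes with a DHT effect of at least 2-fold beside 1 µM, an alternative added after the data were seen, which takes genes that responded beside the lower dose. Among the 358 genes with at least 2-fold changes without the drug, 121 (33.8%) were called beside 10 µM in the same direction and 214 had a called difference. The median share of the effect kept was 30.5%, with quartiles at 14.6% and 47.1%. It was 24.6% for the 179 genes that rose without the drug and 35.8% for the 179 that fell, and this contrast was not tested. The 2056 and the 358 genes were chosen by their effect without the drug, which tends to overstate that effect. Slopes and shares over these genes can therefore be too low. Across all genes, which are not independent replicates, the effects correlated with Pearson's r of 0.407.

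**Figure D2:**
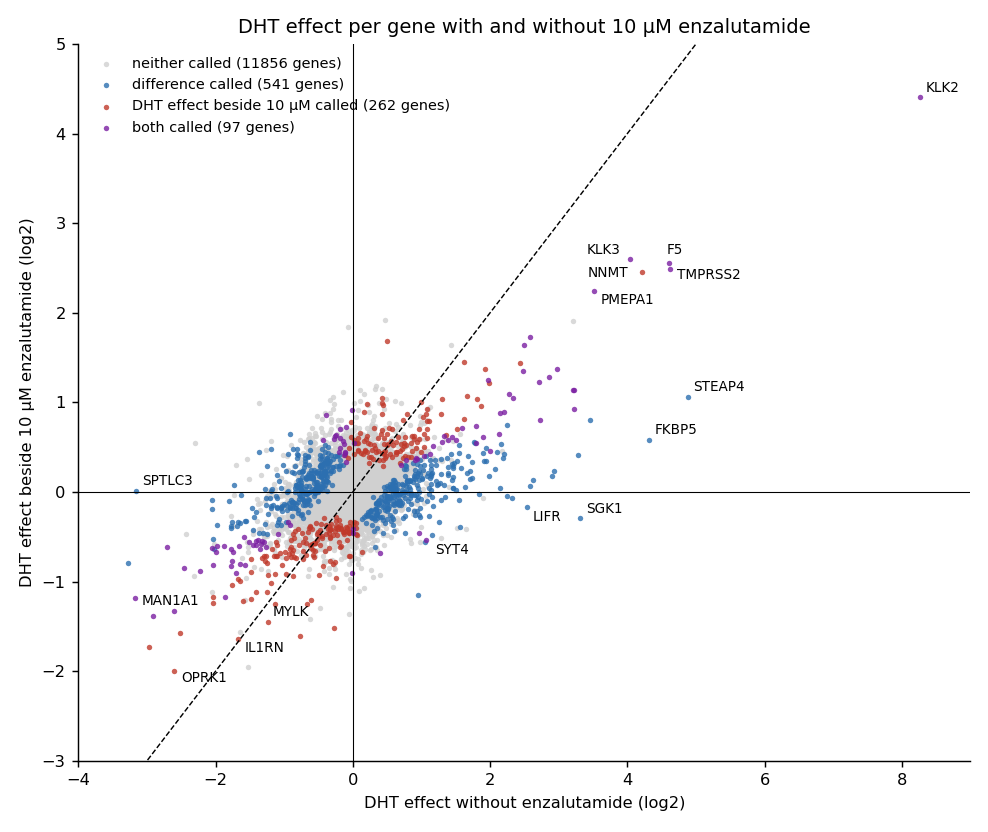
DHT effect per gene (log2) without enzalutamide on the horizontal axis and beside 10 µM on the vertical axis, over the 12756 genes tested, with colours for genes whose effect beside 10 µM, whose difference from the effect without the drug, or both, were called by limma. The dashed line marks equal effects. MYLK and IL1RN lie near it, KLK3 and TMPRSS2 keep 64.2% and 53.9% of their effect, and SGK1, LIFR and SPTLC3 lie near 0 on the vertical axis.

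The strongest risers kept part of their effect. KLK2 had an effect of 8.27 ± 0.39 without the drug, and the difference of the effects was -3.87 ± 0.55 (limma adjusted p = 2.49e-04). Its vehicle mean, 5.45 ± 1.24 (SD), was below the brightness limit, so these sizes and the share kept are uncertain, and the second bright probe set gave 3.29 beside 10 µM against 5.20 without the drug. TMPRSS2 had 4.62 ± 0.25 and kept 53.9%, and PMEPA1 had 3.51 ± 0.15 and kept 63.9%. For both genes the differences were called in limma, with adjusted p-values of 9.46e-04 and 1.02e-03. The share depended on the probe set. Other bright probe sets gave effects beside 10 µM of 0.82 against 2.85 and 2.96 against 4.29 without the drug for TMPRSS2. For PMEPA1 they gave 0.95 against 3.0, 0.80 against 2.77 and 0.30 against 0.67. KLK3 kept 64.2% of an effect of 4.05 (other bright probe sets gave 3.14 against 4.86 and 0.68 against 1.58), and its levels differed from those of TMPRSS2 in pattern. With DHT its mean was 14.20 ± 0.10 (SD) without the drug and 13.97 ± 0.16 beside 10 µM, while the means without DHT were 10.15 ± 0.20 for vehicle and 11.37 ± 0.21 for 10 µM enzalutamide. For TMPRSS2 the means without DHT were 8.48 ± 0.17 and 8.29 ± 0.60, and those with DHT were 13.10 ± 0.11 and 10.78 ± 0.32.

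A small set of genes had a similar DHT effect with and without 10 µM on the probe set tested. IL1RN kept 97.9% of an effect of -1.68, ACP3 kept 88.8% of -1.26, GCG kept 109.8% of -1.14 and MYLK kept 116.4% of -1.24. The differences of the effects were 0.03 ± 0.18 for IL1RN, 0.14 ± 0.15 for ACP3, -0.11 ± 0.31 for GCG and -0.20 ± 0.17 for MYLK. None of these was called, which does not show that the effects were equal. Other bright probe sets differed more between the backgrounds. For ACP3 they gave -1.53, -0.63 and -0.17 beside 10 µM against -1.21, -1.46 and -1.15 without the drug. For IL1RN they gave -1.75 and -1.22 against -0.77 and -1.49, and for MYLK -0.27 against 0.18. In IL1RN the whole pattern was shifted up beside the drug: its means were 9.52 ± 0.21 (SD) for vehicle and 7.84 ± 0.15 for DHT, against 10.24 ± 0.09 and 8.60 ± 0.04 beside 10 µM. HK2, the inducible hexokinase of glycolysis, kept 82.2% of 1.06, SLC19A2, a thiamine transporter, kept 82.1% of 1.02, and CCDC81 kept 86.4% of 1.08, and all 3 rose beside 10 µM. The CCDC81 call was lost under 1 of 14 alternatives, and another bright SLC19A2 probe set gave 0.91 against 0.28. BASP1 kept 85.5% of -1.19, but both means with DHT were below the brightness limit and its call beside 10 µM was lost under 6 of 14 alternatives. TRAPPC14 (0.95 ± 0.36) was not called beside 10 µM, and both its means without DHT were below the limit. These genes were picked for the share they kept, so the shares are a description.

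Other genes had no called DHT effect left. SGK1, a serum- and hormone-regulated kinase, lay at 6.66, 7.33 and 7.12 with 10 µM enzalutamide and at 7.46, 5.99 and 6.79 with DHT added. The arrays overlapped, the mean with DHT was below the brightness limit, and the effect was -0.29 ± 0.35 against 3.32 ± 0.35 without the drug, a called difference of -3.61 ± 0.50 (limma adjusted p = 1.87e-04). LIFR, the receptor for leukaemia inhibitory factor, lay at 9.74, 9.85 and 10.16 without DHT and at 9.80, 9.74 and 9.72 with it. Its effect was -0.16 ± 0.17 against 2.54 ± 0.17, and it was already -0.20 beside 1 µM. FKBP5, a co-chaperone of steroid receptors, lay at 9.53, 9.78 and 9.60 without DHT and at 10.27, 10.18 and 10.21 with it. All its arrays with DHT were above those without, but the effect of 0.58 ± 0.16 missed the call (limma adjusted p = 0.0582), against 4.32 ± 0.16 without the drug. A second bright FKBP5 probe set also gave 0.58.

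The same pattern held for a group of genes with varied roles. RHOU, a small GTPase, had 0.42 ± 0.14 beside 10 µM against 3.28 without it, NCAPD3, a condensin subunit, 0.23 ± 0.19 against 2.93, and MAF, a basic leucine zipper transcription factor, 0.13 ± 0.15 against 2.63. TNFAIP8 had 0.07 ± 0.14 against 2.58, OTULINL 0.17 ± 0.23 against 2.90 and PRR16 -0.07 ± 0.18 against 2.31. HPGD, which inactivates prostaglandins, had 0.80 ± 0.22 against 3.46, with a limma adjusted p of 0.0624 beside 10 µM, and its other bright probe sets gave 1.18 and 1.99. STEAP4, a metalloreductase, had 1.07 ± 0.59 against 4.88, and both groups beside 10 µM were below the brightness limit on average. Among genes that DHT lowered without the drug, SPTLC3, a subunit of the enzyme that starts sphingolipid synthesis, lay at 8.70, 8.88 and 9.04 and at 8.82, 8.69 and 9.14, an effect of 0.01 ± 0.24 against -3.15 ± 0.24. Its arrays overlapped. EGLN3, an oxygen-sensing prolyl hydroxylase, had -0.09 ± 0.29 against -2.05, and CCNE2, cyclin E2 of the entry into DNA synthesis, had -0.10 ± 0.12 against -1.81. RNFT2 had 0.07 ± 0.16 against -1.73 and RFX3 -0.19 ± 0.33 against -2.06. The vehicle means of HPGD and STEAP4, and the means with DHT alone of SPTLC3, EGLN3 and RFX3, were below the brightness limit, so the size of their effects without the drug is uncertain. For each of these genes the difference was called in limma. Like SGK1, LIFR and FKBP5, they were named from the largest called differences, so that call was fixed by the choice.

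**Figure D3:**
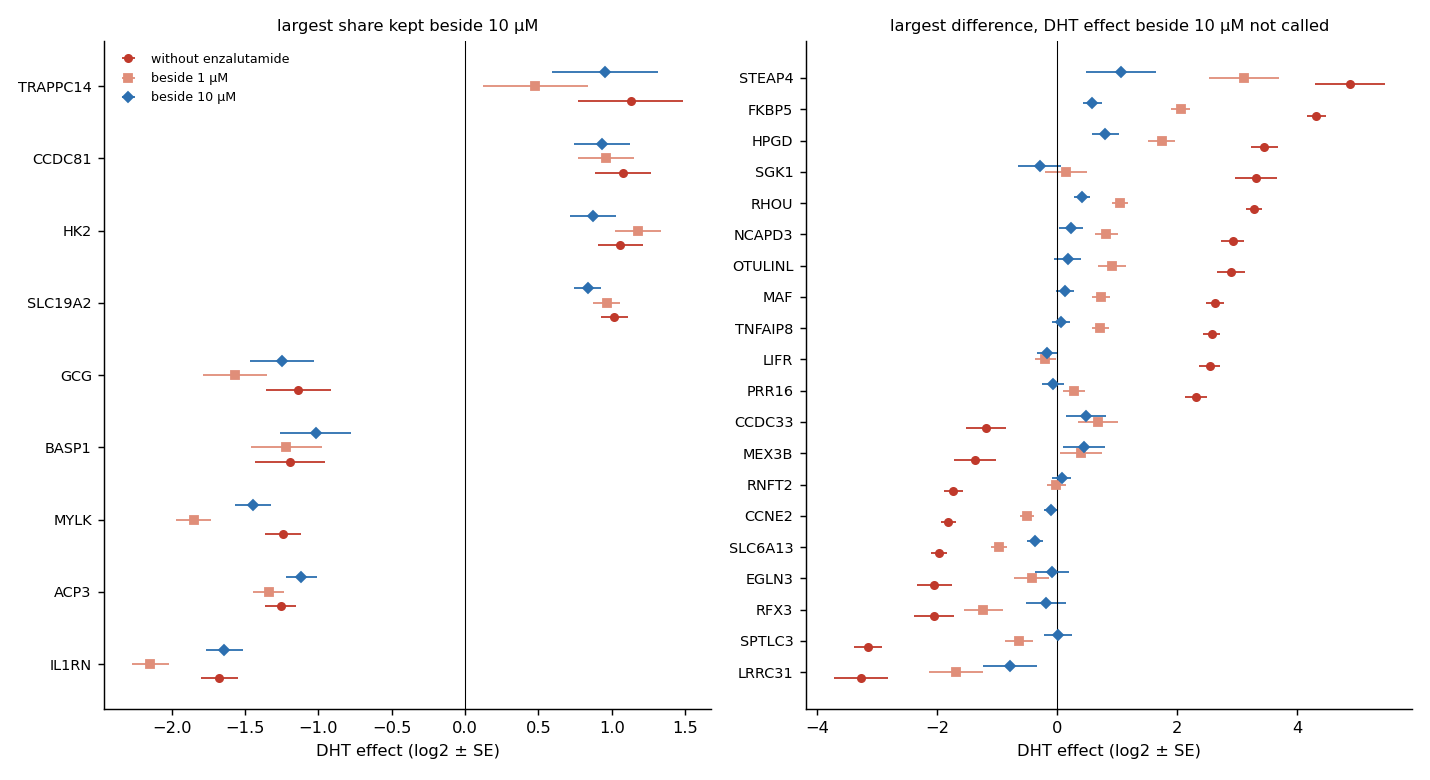
DHT effect (log2, bars ± SE, n = 3 arrays a group) without enzalutamide, beside 1 µM and beside 10 µM. Left, 9 of the genes that kept the largest share of a change of at least 2-fold, from TRAPPC14 at the top to IL1RN at the bottom. Right, the named genes with the largest called difference whose effect beside 10 µM was not called, where the values beside 10 µM lie between -0.79 for LRRC31 and 1.07 for STEAP4.

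Genes with the lowest shares kept had opposite signs with and without the drug. In SYT4, a synaptotagmin of secretory vesicles, DHT raised the signal without the drug by 1.07 ± 0.12 and lowered it beside 10 µM, from 13.34, 13.08 and 13.07 to 12.81, 12.50 and 12.58. The groups did not overlap, and the fall by 0.53 ± 0.12 (limma adjusted p = 0.0149) was lost under 4 of 14 alternatives. The SYT4 mean was 12.03 ± 0.10 (SD) for vehicle and 13.16 ± 0.16 for 10 µM enzalutamide. With DHT it was 13.10 ± 0.08 and 12.63 ± 0.16. SYT4 was 1 of only 3 genes called in both backgrounds with opposite signs. The others were named after their values were seen: DOCK4 had -0.46 beside 10 µM and 0.97 without it, and TNKS had 0.58 and -0.43. KLF4, a zinc finger transcription factor, had -0.34 ± 0.20 against 1.25, DEFB132 -0.39 ± 0.23 against 1.57, MMP28 -0.56 ± 0.28 against 1.05 and MYL3 -0.48 ± 0.27 against 1.16. Their effects beside 10 µM were not called, and the differences were. The vehicle mean of MMP28 was below the brightness limit.

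Beside 1 µM enzalutamide DHT gave 2410 called genes (18.9%), 1408 higher (11%) and 1002 lower (7.86%). This split depended on the processing. After array medians were set equal it was 2312 higher and 289 lower, and the median effect of all genes beside 1 µM moved from -0.0065 to 0.161. With the 2 arrays of high ACTB ratio dropped it was 1141 higher and 730 lower. Of the 359 genes called beside 10 µM, 298 were also called beside 1 µM, all in the same direction, which is 83.0% of the first list and 12.4% of the second. Of 231 genes called in the same direction without the drug and beside both doses, 132 had the largest effect without it and the smallest beside 10 µM, 73 had the largest beside 1 µM, and 9 had the largest beside 10 µM. The slope on the effect without the drug was 0.516 beside 1 µM and 0.301 beside 10 µM, a difference that was not tested. Gene by gene, limma called only 1 difference between the doses (0.00784%), FKBP5, at -1.48, with effects of 2.06 beside 1 µM and 0.58 beside 10 µM. At an unadjusted p under 0.05 there were 1286 genes. The FKBP5 call rested on single arrays, and FKBP5 lost it when any 1 of the 6 arrays with 10 µM enzalutamide, any of the 3 arrays of 1 µM enzalutamide, or replicate 2 of DHT with 1 µM was left out.

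The members were also counted in 23 gene lists by function, all drawn up with earlier results of these data known. Of 38 tested androgen-induced genes, 15 rose and none fell beside 10 µM, against 2.81% of all genes called, and their median effect was 0.50 against 0.02 for all genes. Without the drug 37 of the 38 rose, with a median of 2.27. By the test of the difference, the effect was smaller beside 10 µM for 32 members. The members that rose included ABCC4, AZGP1, C1orf116, CENPN, ELL2, ELOVL7, F5, GNMT, KLK2, KLK3, NNMT, PMEPA1, SLC45A3 and TMPRSS2. Of 20 androgen-repressed genes 12 fell and none rose, with a median of -0.74, against 18 that fell and a median of -2.13 without the drug. Among them MAN1A1 kept 37.1%, LRRN1 34.5% and STXBP5L 22.5% of their effect, and all 3 fell with a called difference. The mean of MAN1A1 with DHT alone was below the brightness limit, and the STXBP5L fall beside 10 µM was lost under 4 of 14 alternatives. The difference was called for 9 of the 20. Over all genes 7.8% rose and 8.32% fell without the drug, and 5% had a called difference.

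Lipid synthesis genes kept a response in part of the list. Of 25 tested cholesterol synthesis genes, 4 rose, SQLE and ACAT2 among them, and none fell beside 10 µM, with a list median of 0.24, against 18 that rose, 1 that fell and a median of 0.69 without the drug. Over all genes 1.36% rose beside 10 µM and 7.8% without the drug. After array medians were set equal, 2 of the 25 rose beside 10 µM, and 62 of all 12756 genes. SQLE, squalene epoxidase, rose by 0.51 ± 0.09, keeping 68.6%, and ACAT2, which condenses acetyl-CoA, rose by 0.35 ± 0.08, keeping 45.4%. The call for ACAT2 was lost under 4 of 14 alternatives. Of 19 fatty acid synthesis genes ELOVL7 and ACACA rose, with a median of 0.24 against 0.32 without the drug, where 10 rose and 1 fell. ACACA, the carboxylase that makes malonyl-CoA, rose by 0.44 ± 0.12 (limma adjusted p = 0.0493). Its call was lost under 8 of 14 alternatives, and another bright probe set gave -0.16.

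Other lists had few called members or none, and with 2.81% of all genes called, a count of 0 or 1 is near the background and is no result about a list. None of 14 glucocorticoid-response genes was called beside 10 µM (median -0.07, range -0.29 to 0.75). Without the drug 7 rose and 2 fell (median 0.53), and the difference was called for 6. Over all genes 16.1% were called without the drug and 5% had a called difference. With the arrays of high ACTB ratio dropped, 2 of the 14 rose, beside 369 of all 12756 genes. Besides FKBP5 and SGK1 the list includes CEBPD, a transcription factor, at -0.04 beside 10 µM against 0.89, NFKBIA, the inhibitor of NF-κB, at -0.09 against 1.29, and ERRFI1, which restrains the EGF receptor, at 0.18 against 1.98. None of 10 polyamine genes was called (median -0.09), against 5 that rose without the drug. ODC1, ornithine decarboxylase, had -0.19 against 0.81, and SMS, spermine synthase, 0.13 against 1.44. CEBPD, NFKBIA, ERRFI1, ODC1 and SMS were named after their values were seen.

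In the unfolded protein response, HSPA5 was called among 23 genes (median -0.09), a share near the background, and none was called after array medians were set equal. Without the drug 9 of the 23 rose and 1 fell, against 7.8% and 8.32% of all genes. HSPA5, the main chaperone of the endoplasmic reticulum, lay at 13.78, 13.78 and 13.75 without DHT and at 13.54, 13.21 and 13.20 with it. The groups did not overlap and it fell by 0.46 ± 0.08 (limma adjusted p = 4.63e-03), while its effect was 0.01 without the drug. The call was lost under 2 of 14 alternatives, and another bright HSPA5 probe set gave 0.02. Of 23 DNA replication genes, the helicase subunits MCM4 (0.80 ± 0.11) and MCM3 (0.46 ± 0.11) rose and TYMS, thymidylate synthase, fell (-0.45 ± 0.12), with a median of 0.03. The calls for MCM3 and TYMS were lost under 7 and 9 of 14 alternatives. Another bright MCM4 probe set gave 0.16, and those of TYMS gave -0.31 and 0.08. None of 24 mitosis genes was called (median -0.09). MYC rose by 0.65 ± 0.12 and JUN fell by 0.29 ± 0.07 among 11 immediate early genes, whose median was -0.21. The JUN call was lost under 8 of 14 alternatives.

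Of 19 glycolysis genes HK2 rose by 0.87 ± 0.16 and GAPDH fell by 0.53 ± 0.13, with a median of 0.11. GAPDH was also the only called gene of 16 housekeeping genes (median -0.14), its other bright probe sets gave -0.26 and -0.31, and its call was lost under 9 of 14 alternatives. BAX, which promotes cell death at the mitochondrion, was the only called gene of 18 p53 and apoptosis genes (-0.78 ± 0.18, median of the list -0.11), and GCLC, of glutathione synthesis, that of 13 NRF2 genes (-0.56 ± 0.14). These calls were lost under 6 and 8 of 14 alternatives. None of 21 ATF4 and amino acid genes, 20 ribosome biogenesis genes and 8 xenobiotic metabolism genes was called. Among markers of other cell types, ITGA6 rose in the basal list (0.41 ± 0.11, lost under 10 of 14 alternatives) and SYT4 fell in the neuroendocrine list, and none of the tested fibroblast, leukocyte and endothelial markers was called. The summed neuroendocrine signal was 13555 to 15623 without DHT and 11756 to 13615 with it. When the arrays with a high ACTB ratio were dropped, more members were called: 21 androgen-induced genes rose and 13 androgen-repressed genes fell. Calls over all 12756 genes went up too, to 369 that rose and 490 that fell, from 173 and 186. After centring, 14 androgen-induced genes rose and 9 androgen-repressed genes fell, and over all genes 62 rose and 61 fell.

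**Figure D4:**
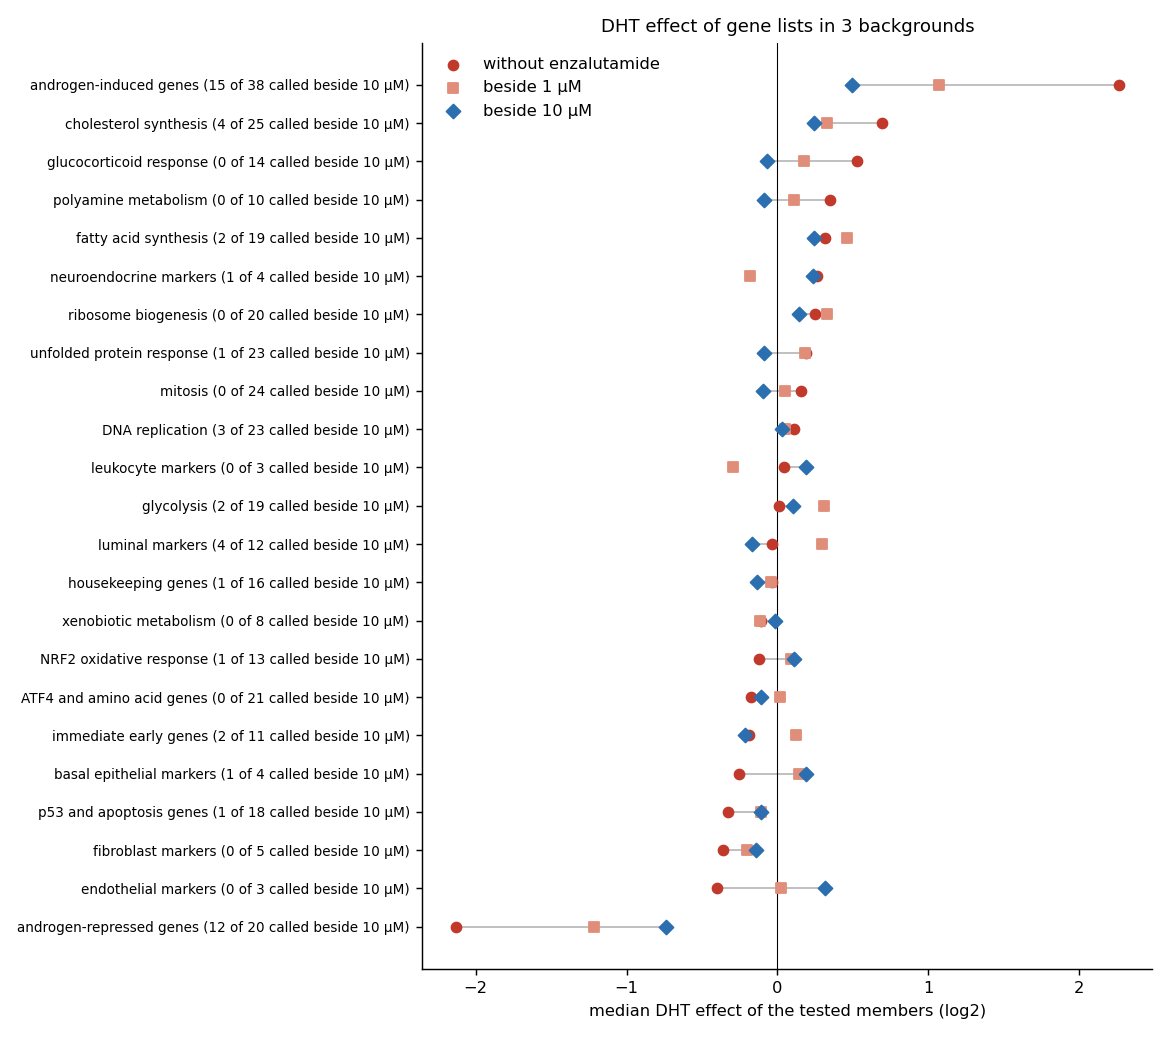
Median DHT effect (log2) of the tested members of 23 gene lists without enzalutamide, beside 1 µM and beside 10 µM, with the number of members called beside 10 µM in the label of each list. The androgen-induced and androgen-repressed lists lie outermost, with medians beside 10 µM of 0.50 and -0.74, and most other lists lie near 0 beside 10 µM.

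Some genes called for DHT beside 10 µM had no call without the drug, which does not show that DHT left them unchanged there. Of the 359 called genes, 111 were not called without the drug, 81 of them with the same sign in both backgrounds, and 66 of the 111 were called beside 1 µM in the same direction. For 21 of the 111 the difference itself was called, and these 21, named after their values were seen, were small in effect. Of them 17 rose and 4 fell. Without the drug the arrays with and without DHT did not overlap for GADD45G (0.40), ANAPC2, IL11RA, KLHL21 and AGPAT3, each with the opposite sign to its effect beside 10 µM. None of these was called there, and the share of all genes without overlap was not counted for that contrast. Beside 10 µM it was 24.8%, so a lack of overlap is no result about these genes. MICA, a stress ligand of natural killer cells, lay at 7.46, 7.95 and 7.36 without DHT and at 8.73, 8.32 and 8.47 with it, an effect of 0.92 against -0.01 without the drug. KCNH8, a potassium channel, lay at 9.45, 9.29 and 9.72 and at 10.20, 10.24 and 10.18, an effect of 0.72 against -0.11. In both genes the groups beside 10 µM did not overlap. GALNT2, which starts mucin-type sugar chains, had 0.55 against 0.02, and NDFIP1, an adaptor of ubiquitin ligases, 0.53 against -0.13. Beside 10 µM their other bright probe sets gave 0.14, 0.25 and -0.13 for GALNT2, and 0.37 and 0.06 for NDFIP1.

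The 4 that fell were RBM24, an RNA-binding protein (-0.91), GADD45G, a growth-arrest gene (-0.68), HSPA5 and MME, the membrane metalloendopeptidase neprilysin (-0.42). RBM24 lay at 9.12, 8.95 and 9.16 without DHT and at 8.21, 8.22 and 8.08 with it, and MME at 14.20, 14.13 and 14.06 and at 13.86, 13.63 and 13.64. Neither gene had overlapping arrays. A second bright MME probe set gave -0.46, while other bright probe sets of KCNH8 and IL11RA gave -0.27 and 0.03 against 0.72 and 0.63 for the ones tested. Of the 21, 20 had the same sign beside 1 µM and 12 were called there. The difference was still called for 18 of them when the arrays with a high ACTB ratio were dropped, but for only 4 after array medians were set equal. That centring moved the median effect of all genes without the drug from -0.03 to 0.06, and left it at 0.02 beside 10 µM.

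**Figure D5:**
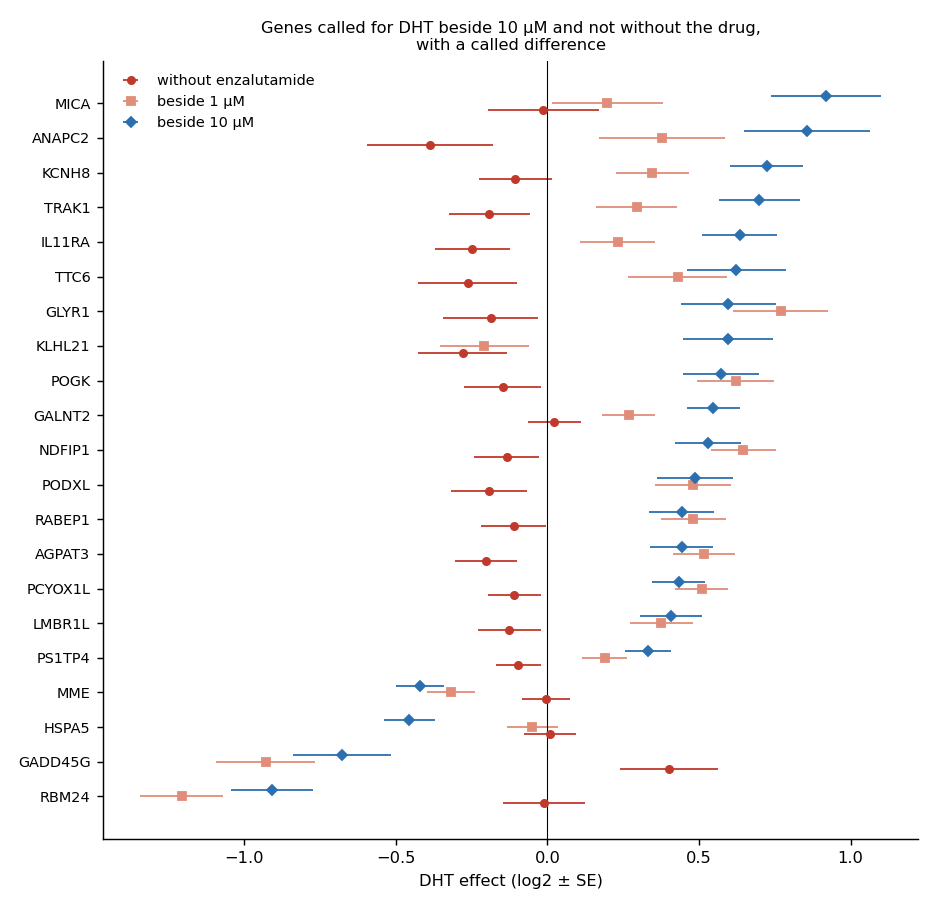
DHT effect (log2, bars ± SE, n = 3 arrays a group) of the 21 genes called beside 10 µM, not called without enzalutamide and with a called difference between these effects. Effects without the drug lie between -0.39 for ANAPC2 and 0.40 for GADD45G, and effects beside 1 µM have the same sign as those beside 10 µM for 20 of the 21 genes.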

How the data were processed

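Per the labels' protocols, biotin-labelled cRNA of total RNA was read on arrays of a single colour. MAS5 was used per the submitters' processing notes; the sources used here give neither the array model nor further steps. The deposited values are log2 signals, as the values themselves show and per the file headers. The 2 deposited copies were identical, and the trimmed mean signal was 500.1 on each array, so the arrays had been scaled alike. The authors' deposited table also holds p-values per probe set with marks and log2 ratios between groups (per the file headers), and only its marks and their direction were used.

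Of 54675 probe sets, 62 controls were dropped, 10470 had no symbol and 573 had several. Symbols were updated with a RefSeq table (GRCh38.p14): 38264 probe sets through an accession, 1239 by a current symbol and 1080 by a synonym, while 2987 kept their name. Probe sets with a mean log2 signal of 6.98 or more, the median, were kept, and each gene took its brightest one, which left 12756 of 19178 genes. limma 3.58.1 (R 4.3.3) fitted 6 group means to 18 arrays with 12 residual degrees of freedom, with eBayes and an intensity trend, and Benjamini-Hochberg adjustment over all genes, called at 0.05, two-sided. The DHT effects and their differences came from this fit, which was tested on simulated data. The number of arrays limits the precision.

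Named genes were the 20 genes that rose and 20 that fell most among called genes without overlap, the 12 highest and lowest called differences, up to 5 called members of each list and all tested members of short lists, the 10 genes with the highest and the 10 with the lowest share kept, and 6 reference genes. Y-linked genes were tested but not named. Some other genes that the rule names, and 1 list, are not reported here. The comparison, its lists and its tests were chosen with earlier results of these data known. Alternatives were no filter, a stricter filter at 8.92, median centring, quantile normalization, no trend, a replicate block, all bright probe sets, fewer arrays, and leaving out each array. Replicate numbers were not taken as pairs, since same-numbered arrays of these groups did not deviate together. Python 3.11.15, numpy 2.4.6 and pandas 2.3.3 made the tables and matplotlib 3.10.9 the plots.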

Additional observations from a re-analysis of the deposited data

Results flagged for a closer look

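The DHT effect beside 10 µM enzalutamide differed from that without the drug, by limma's test of the difference itself, for 638 genes, and from that beside 1 µM for 1 gene. Among the named genes, the difference from the effect without the drug was negative for the following, which DHT raised without the drug: KLK2 (-3.87), STEAP4 (-3.81), FKBP5 (-3.74), SGK1 (-3.61), RHOU (-2.87), OTULINL (-2.73), LIFR (-2.71), NCAPD3 (-2.70), HPGD (-2.66), TNFAIP8 (-2.51), MAF (-2.50) and PRR16 (-2.38). KLK2 was the only one of these 12 whose effect beside 10 µM was still called. The vehicle means of KLK2, STEAP4 and HPGD were below the brightness limit, so their sizes are uncertain and the order is not a ranking.

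It was positive for the following, which DHT lowered without the drug: SPTLC3 (3.17), LRRC31 (2.48), STXBP5L (2.10), MAN1A1 (2.0), EGLN3 (1.96), RFX3 (1.87), MEX3B (1.81), RNFT2 (1.80), CCNE2 (1.71), CCDC33 (1.67), SLC6A13 (1.61) and LRRN1 (1.61). Of these, STXBP5L, MAN1A1 and LRRN1 still fell beside 10 µM. The means with DHT alone of SPTLC3, LRRC31, MAN1A1, EGLN3, RFX3 and MEX3B were below the brightness limit, which leaves their sizes uncertain too. Between the doses, the difference of FKBP5 was -1.48. These are values on the log2 scale with 3 arrays a group.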

How the results depend on the processing

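The slope of the DHT effect beside 10 µM on the effect without the drug stayed between 0.265 and 0.310 when each of 12 arrays was left out, and was 0.467 with genes chosen beside 1 µM. The count of genes called for DHT beside 10 µM, 359, was 123 after centring each array on its median, all shared with the 359, and 859 with the 2 arrays of high ACTB ratio dropped, which include all 359. Leaving out 1 array of the compared groups gave 165 to 327, with fewer arrays behind each mean. The 638 differences from the effect without the drug became 244 after centring and 393 to 778 when 1 array was left out. The single difference between the doses became 0 by limma without a brightness filter, after quantile normalization, without the intensity trend, with only the arrays compared and over all probe sets, 4 after centring (FKBP5, NRGN, PYCR3 and TRGC2), and 3 with the high-ACTB arrays dropped (CENPN, FKBP5 and SMA4). It was 0 to 2 when 1 array was left out, against 1286 genes at an unadjusted p under 0.05 over all arrays. Where no value above shows it, the cause was not tested. With the replicate number as a block, the counts were 390, 667 and 1 and the slope 0.299; same-numbered arrays of the compared groups had deviations that correlated at -0.139, 0.0155 and 0.0516, so they share only a number. In the alternatives that use the same probe set for each gene, no called value changed sign. Of 399 other bright probe sets of called genes, 342 had the same sign as the one tested. Genes near the brightness limit have the least certain changes.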
